A study of Mus musculus with 6 samples.

Results

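The Notch genes examined here were 10 genes of 44788 listed in the count table, found by symbol: the receptors Notch1, Notch2, Notch3 and Notch4, the ligands Jag1 and Jag2, and the target genes Hes1, Hey1, Hey2 and Heyl. Whole-ovary samples of wild-type Bnc1+/+ mice (3, replicates 1, 4 and 7) and homozygous Bnc1tr/tr mice (3, replicates 1, 2 and 3) were compared. All were C57BL/6 J and 8 weeks old by their labels. The labels do not say whether any samples came from the same mouse, or whether 1 or both ovaries of a mouse were used. Bnc1tr/tr mice carry a small germline deletion in Bnc1 that shifts the reading frame, so every cell of the ovary had the mutant allele, and the wild-type mice are described by the study as littermates. No treatment is named in the labels. RNA of the whole organ was sequenced, and a lower value can therefore come from fewer cells of a type or from less RNA per cell, which cannot be told apart here.

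Notch signaling passes between touching cells. A ligand of the Jagged or Delta-like family on a cell binds a Notch receptor on its neighbour, the receptor is cut by ADAM proteases and gamma-secretase, and its inner part enters the nucleus, where with RBPJ and Mastermind proteins it switches on genes such as those of the Hes and Hey families of transcriptional repressors. In the ovary, Notch2 of granulosa cells receives Jag1 from oocytes during the formation and growth of follicles. In blood vessels, Notch1 and Notch4 act in endothelial cells with the ligand Dll4, and Notch3 is a receptor of pericytes and vascular smooth muscle.

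The libraries held 25247770 to 34406296 gene counts each. Bnc1 itself had 375, 444 and 381 counts in Bnc1+/+ and 527, 355 and 326 counts in Bnc1tr/tr ovaries, which does not check the labels, since the deletion leaves most of the gene in place. The quasi-likelihood test of edgeR was run on 19423 genes, and those with a Benjamini-Hochberg adjusted p under 0.05 are called differentially expressed genes (DEGs). SE stands for the standard error of a log2 fold change. Of the 1372 DEGs, 59.3% were lower in Bnc1tr/tr, a share that was 48.1% with upper-quartile scaling and 35.6% with library size as the only scaling, which moved the median log2 fold change of all genes from 0.018 to 0.12. Expression is given as TMM-normalized CPM, a gene's counts set to a common library total after the libraries were scaled to each other. Ovary tissue was recognisable by its markers in all 6 libraries, with summed CPM of the oocyte list between 586 and 1101 and of the granulosa list between 4691 and 7688. Some libraries also differed in markers of oviduct and adipose tissue. Whether this RNA came from neighbouring tissue or from the ovary itself was not tested. The summed CPM of the oviduct list was 162 in Bnc1+/+ replicate 1 and 549 in Bnc1tr/tr replicate 3, against 44.1 to 50.7 in the other 4 ovaries, and that of the adipose list was 364 and 263 in Bnc1tr/tr replicates 1 and 2, against 16.8 to 94.8 in the others.

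Because Notch3, Notch4 and 2 further pathway genes, Dll4 and Nrarp, were lower in Bnc1tr/tr ovaries, their promoters are shown beside that of Hey2. Among the members with a promoter entry, Hey2 was the 1 that held the RBPJ letters TGGGAA in this window. Each is the RefSeq sequence of GRCm38.p6 from 250 bases before to 50 bases after the transcription start, in the direction of transcription. Of the 10 members, 7 had an entry. The target genes Hes1, Hey1 and Heyl had none, so their promoters were not searched. The capitals mark TGGGAA, the letters CACGNG bound by Hes and Hey proteins, and the N box CACNAG, searched on both strands.
Notch3 (minus strand, chr17:32166841-32167140): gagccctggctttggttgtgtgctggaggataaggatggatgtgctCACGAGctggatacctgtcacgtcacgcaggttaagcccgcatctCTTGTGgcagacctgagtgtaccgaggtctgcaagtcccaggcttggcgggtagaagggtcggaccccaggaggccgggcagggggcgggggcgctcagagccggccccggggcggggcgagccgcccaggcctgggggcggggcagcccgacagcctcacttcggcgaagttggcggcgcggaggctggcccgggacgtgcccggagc
Notch4 (plus strand, chr17:34564045-34564344): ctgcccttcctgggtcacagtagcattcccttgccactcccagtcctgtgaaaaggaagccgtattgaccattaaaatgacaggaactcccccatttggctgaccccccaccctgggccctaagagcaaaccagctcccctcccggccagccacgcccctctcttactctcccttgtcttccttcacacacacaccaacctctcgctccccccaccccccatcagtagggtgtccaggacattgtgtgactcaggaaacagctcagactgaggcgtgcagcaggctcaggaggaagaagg
Dll4 (plus strand, chr2:119325534-119325833): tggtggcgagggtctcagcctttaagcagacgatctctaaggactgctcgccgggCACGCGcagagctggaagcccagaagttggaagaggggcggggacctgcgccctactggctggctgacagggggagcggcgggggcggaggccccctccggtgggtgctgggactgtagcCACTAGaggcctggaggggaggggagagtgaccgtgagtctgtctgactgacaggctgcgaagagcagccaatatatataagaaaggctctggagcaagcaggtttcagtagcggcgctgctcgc
Nrarp (plus strand, chr2:25180508-25180807): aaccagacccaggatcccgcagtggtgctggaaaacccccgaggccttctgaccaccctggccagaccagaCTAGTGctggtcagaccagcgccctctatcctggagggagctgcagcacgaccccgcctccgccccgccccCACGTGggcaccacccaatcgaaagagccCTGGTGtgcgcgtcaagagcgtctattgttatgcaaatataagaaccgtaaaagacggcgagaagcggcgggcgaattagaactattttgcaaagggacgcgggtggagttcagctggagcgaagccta
Hey2 (minus strand, chr10:30842734-30843033): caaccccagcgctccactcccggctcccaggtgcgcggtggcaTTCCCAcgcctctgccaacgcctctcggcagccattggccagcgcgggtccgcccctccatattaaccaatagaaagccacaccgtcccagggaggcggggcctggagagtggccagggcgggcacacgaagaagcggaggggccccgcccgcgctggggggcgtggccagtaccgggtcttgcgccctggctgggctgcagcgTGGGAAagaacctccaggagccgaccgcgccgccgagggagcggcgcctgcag
Hey2 held TGGGAA at positions -207 and -3 from the transcription start, the first of them on the opposite strand. The Notch3 promoter held CACGAG at -204, which matches both CACGNG and CACNAG, and an N box on the opposite strand at -159. Notch4 held none of these letters in this window, and its 300 bases had 5 CpG dinucleotides, where Notch3 had 25. Dll4 and Nrarp held CACGNG and CACNAG, and in Nrarp the CACGNG match, CACGTG at -108, reads alike on both strands. Among the 7 members with a promoter, 1 held TGGGAA, 4 CACGNG and 3 CACNAG. Of all 32851 promoters of this length, 25.6% held TGGGAA, 27.5% CACGNG and 42.5% CACNAG.

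Of the 10 Notch genes, 2 were DEGs, Notch3 and Notch4, and both were lower in Bnc1tr/tr ovaries. Among all genes tested 7.06% were DEGs, with 4.19% lower and 2.88% higher in Bnc1tr/tr. For 3 of the 10 (Notch1, Notch3 and Notch4) all Bnc1tr/tr values lay below all Bnc1+/+ values, as they did for 15.8% of all genes, and 4 had an unadjusted p under 0.05, as did 24.2% of all genes. The median log2 fold change was -0.15 over the 10 genes and 0.018 over all genes tested. The 2 receptors were also DEGs of the list in DESeq2's Wald test, which added Notch1 and called 12.5% of all genes tested. The plot of CPM by ovary shows the values of all 10 genes.

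**Figure D1:**
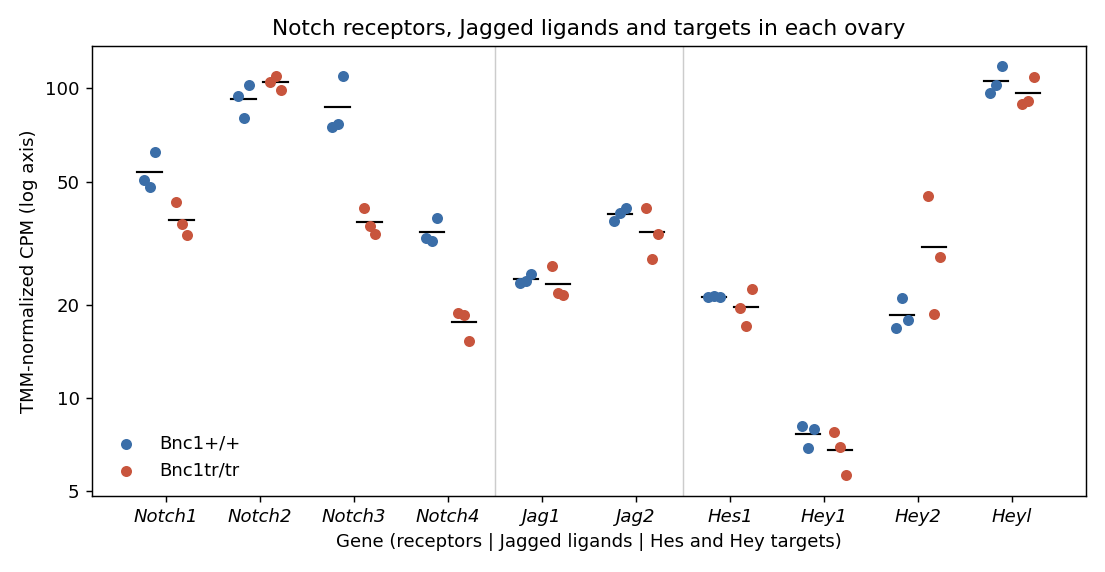
TMM-normalized CPM (log axis) of the 10 Notch genes in each of the 6 ovaries, with 1 point per ovary, black lines for the mean of 3 ovaries, Bnc1+/+ in blue and Bnc1tr/tr in red. The Bnc1tr/tr points lie below all Bnc1+/+ points for Notch1, Notch3 and Notch4, and the genotypes overlap for the other 7 genes.

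Notch3 (ENSMUSG00000038146.8, chromosome 17 of GRCm38 from 32120820 to 32166852), a receptor of vascular mural cells, showed the largest fall of the 10 genes. It was at 75.0, 76.7 and 109.6 CPM in Bnc1+/+ replicates 1, 4 and 7 and at 41.0, 35.9 and 33.9 CPM in Bnc1tr/tr replicates 1, 2 and 3. Every Bnc1tr/tr ovary lay well under the lowest Bnc1+/+ ovary, and Bnc1+/+ replicate 7 stood above the other Bnc1+/+ ovaries. Notch3 fell from 87.1 ± 19.5 to 36.9 ± 3.68 CPM (SD, n = 3), and its log2 fold change of -1.24 had an SE of 0.16 (adjusted p = 0.0059 in edgeR). Without Bnc1+/+ replicate 7 the log2 fold change was -1.05 and Notch3 was still a DEG. A long antisense gene, Gm17276, overlaps Notch3 on the other strand in the GENCODE M21 annotation, and the sources used here do not state whether reads were counted by strand.

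Notch4 (ENSMUSG00000015468.14, chromosome 17 from 34564268 to 34588503) is a receptor found mainly in endothelial cells. Its values were 32.8, 32.1 and 38.1 CPM in Bnc1+/+ and 18.9, 18.5 and 15.3 CPM in Bnc1tr/tr ovaries. The replicates of each genotype lay close together, with a wide gap between the genotypes. Notch4 fell from 34.3 ± 3.32 to 17.6 ± 1.99 CPM (SD, n = 3), which left 51.1% of the Bnc1+/+ mean (log2 fold change -0.97, SE 0.12, adjusted p = 0.0053 in edgeR).

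Notch1 (chromosome 2 from 26457903 to 26516663), a receptor of endothelial and many other cells, was at 50.6, 48.1 and 62.1 CPM in Bnc1+/+ and at 43.0, 36.4 and 33.6 CPM in Bnc1tr/tr ovaries. The genotypes did not overlap, which in either direction was true of 30.8% of all genes tested, but the gene did not pass the threshold. Its log2 fold change was -0.51 with a 95% interval from -0.82 to -0.20 (adjusted p = 0.0617 in edgeR). Notch1 was past the threshold with DESeq2 (adjusted p = 0.0109), without the filter on low counts (adjusted p = 0.0451) and without Bnc1tr/tr replicate 1 (adjusted p = 0.0442), and not past it under the 11 other alternatives.

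Notch2 (chromosome 3 from 98013527 to 98150361), a receptor of granulosa cells, was at 94.6, 80.5 and 102 CPM in Bnc1+/+ and at 105, 110.0 and 99.0 CPM in Bnc1tr/tr ovaries. Here the genotypes overlapped, with means of 92.4 ± 11.0 and 105 ± 5.47 CPM (SD, n = 3). The log2 fold change was 0.18 with a 95% interval from -0.063 to 0.42 (adjusted p = 0.339 in edgeR), an interval that leaves out falls of the size measured for Notch3 and Notch4.

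The receptors were then compared within each library, where scaling between libraries has no part. Notch3 CPM amounted to 79.3%, 95.3% and 107% of Notch2 CPM in the Bnc1+/+ ovaries and to 39.0%, 32.6% and 34.2% in the Bnc1tr/tr ovaries. Notch4 CPM amounted to 34.7%, 39.8% and 37.3% of Notch2 CPM in Bnc1+/+ and to 18.0%, 16.8% and 15.4% in Bnc1tr/tr. Notch1 CPM amounted to 53.4%, 59.7% and 60.8% of Notch2 CPM in Bnc1+/+ and to 40.9%, 33.1% and 33.9% in Bnc1tr/tr. All 3 ratios were lower in every Bnc1tr/tr ovary than in any Bnc1+/+ ovary, with log2 differences of -1.41, -1.16 and -0.69 (each with p = 0.1 in a two-sided exact permutation test, the smallest that 3 ovaries against 3 allow). The CPM of these 3 receptors already lay apart by genotype, so the separation of the ratios largely follows from those values. Notch2 was slightly higher in Bnc1tr/tr (log2 fold change 0.18, not called), which adds to the differences. These ratios were chosen after the data were seen.

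Levels of different genes were compared after dividing CPM by the length of all annotated exons in kilobases, which understates genes with many alternative exons. On this scale Notch3 was the highest receptor in Bnc1+/+ ovaries, with 10.8 ± 2.41 CPM per kb (SD, n = 3), followed by Notch2 with 8.57 ± 1.02, and their ranges overlapped. In Bnc1tr/tr ovaries Notch2 led with 9.71 ± 0.507 CPM per kb, and Notch3 followed with 4.56 ± 0.455, with no overlap. Notch4 went from 4.26 ± 0.412 to 2.18 ± 0.247 CPM per kb, and lay above Notch1 in each Bnc1+/+ ovary and below it in each Bnc1tr/tr ovary. The summed level of the 4 receptors was 27.4 ± 4.18 CPM per kb in Bnc1+/+ and 19.1 ± 1.32 in Bnc1tr/tr ovaries. Notch2 made up 31.5% ± 2.43 of this sum in Bnc1+/+ and 50.9% ± 2.28 in Bnc1tr/tr ovaries, while the share of Notch1 was 13.8% in both (SD 0.167 and 0.998, n = 3).

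**Figure D2:**
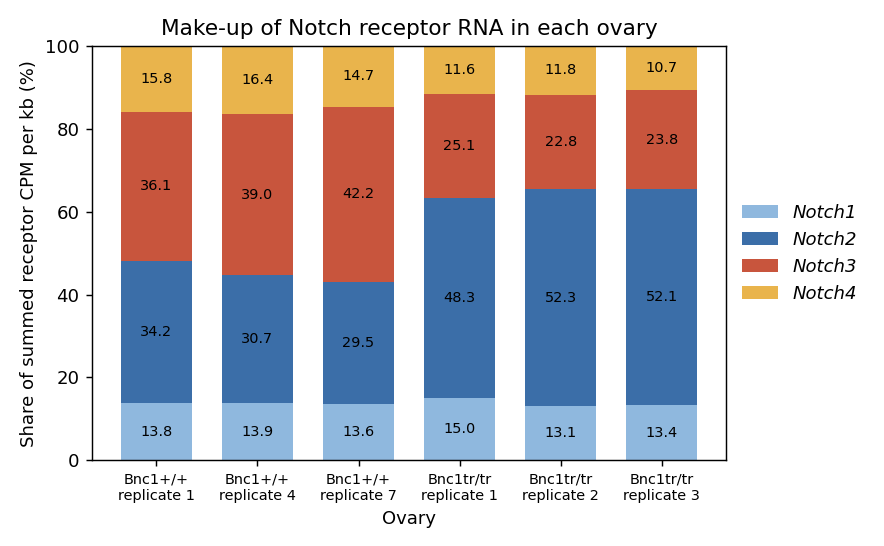
Stacked bars of the share (%) of each Notch receptor in the summed receptor level (CPM per kb of exon), 1 bar per ovary. Notch2 holds 29.5% to 34.2% in the Bnc1+/+ ovaries and 48.3% to 52.3% in the Bnc1tr/tr ovaries, and Notch3 holds 36.1% to 42.2% and 22.8% to 25.1%.

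The Jagged ligands did not differ beyond the spread between ovaries. Jag1, a ligand made by oocytes among other cells, was at 23.5, 23.9 and 25.1 CPM in Bnc1+/+ and at 26.7, 21.8 and 21.5 CPM in Bnc1tr/tr ovaries. Its Bnc1tr/tr values lay on both sides of the Bnc1+/+ values. The 95% interval of its log2 fold change ran from -0.31 to 0.20 around -0.052, and the sign turned to 0.047 with library size as the only scaling. Jag2, the second Jagged ligand, was at 37.2, 39.6 and 41.2 CPM in Bnc1+/+ and at 41.2, 28.1 and 33.8 CPM in Bnc1tr/tr ovaries, and the genotypes overlapped through Bnc1tr/tr replicate 1. Its log2 fold change was -0.19 with a 95% interval from -0.52 to 0.13. Neither ligand had an unadjusted p under 0.05 in edgeR, and DESeq2 and limma-voom called neither.

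Among the target genes, Heyl, a Hey-family repressor also found in vascular smooth muscle, was the highest, with 20.6 ± 2.16 CPM per kb in Bnc1+/+ and 18.9 ± 2.11 in Bnc1tr/tr ovaries (SD, n = 3). It was at 96.5, 102 and 118 CPM in Bnc1+/+ and at 89.3, 91.3 and 109 CPM in Bnc1tr/tr ovaries, and the genotypes overlapped (log2 fold change -0.13, 95% interval -0.39 to 0.13). Hes1, the best known direct target of Notch, was at 21.2, 21.3 and 21.2 CPM in Bnc1+/+ and at 19.5, 17.1 and 22.5 CPM in Bnc1tr/tr ovaries. The Bnc1+/+ values were almost equal and the Bnc1tr/tr values lay around them (log2 fold change -0.11, 95% interval -0.38 to 0.16). Hey1, a target in endothelial cells, had the lowest level per kb of the 10 genes in Bnc1+/+ ovaries (2.35 ± 0.20 CPM per kb, SD, n = 3) and was at 8.14, 6.92 and 7.93 CPM in Bnc1+/+ and 7.79, 6.97 and 5.64 CPM in Bnc1tr/tr ovaries (log2 fold change -0.17, 95% interval -0.56 to 0.22). The intervals of Hes1, Hey1 and Heyl leave out a log2 fall as large as those of Notch3 and Notch4.

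Hey2 was the member with the widest spread. It encodes a repressor of arterial endothelial cells and the heart, and was at 16.8, 21.0 and 17.9 CPM in Bnc1+/+ and at 45.0, 18.7 and 28.5 CPM in Bnc1tr/tr replicates 1, 2 and 3. Bnc1tr/tr replicates 1 and 3 lay above the Bnc1+/+ ovaries, and replicate 2 lay among them. The log2 fold change was 0.73 with a 95% interval from 0.069 to 1.38 and did not pass the threshold (adjusted p = 0.169 in edgeR). It passed without Bnc1tr/tr replicate 2 (0.98, adjusted p = 0.0429) and was 0.35 without Bnc1tr/tr replicate 1. Hey2 thus held 25%, 12.6% and 15.4% of the summed level per kb of the 4 target genes in the Bnc1tr/tr ovaries and 10.3%, 12.3% and 9.80% in the Bnc1+/+ ovaries. Bnc1tr/tr replicates 1, 2 and 3 also differed in summed CPM of the adipose list (364, 263 and 36.4) and the oviduct list (50.6, 50.7 and 549). Their sums were 7688, 4926 and 6868 for the granulosa list and 1097, 726 and 1101 for the oocyte list. The part of these tissues and cells in the Hey2 values was not tested.

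**Figure D3:**
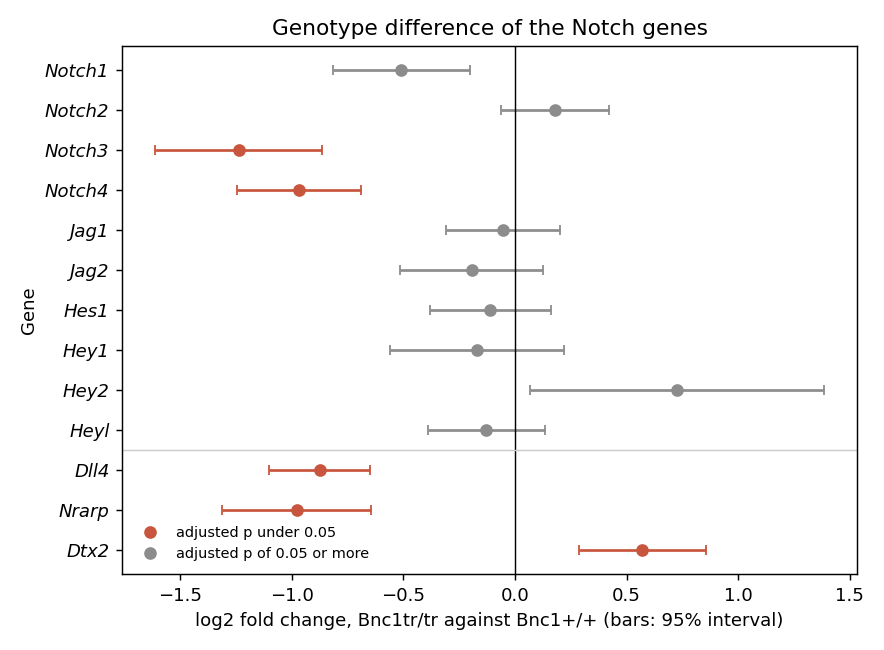
Log2 fold changes of the 10 Notch genes and of the 3 other pathway genes that passed the threshold, Bnc1tr/tr against Bnc1+/+ (3 ovaries each), with 95% intervals from edgeR as bars and DEGs in red. Notch3 (-1.24), Notch4 (-0.97), Dll4 (-0.88) and Nrarp (-0.98) lie to the left of 0, and the intervals of the Jagged ligands, Hes1, Hey1 and Heyl hold 0.

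Of 50 other genes of the pathway, 45 were tested and 3 were DEGs, a share of 6.67% that lay near the 7.06% of all genes. They were Dll4 and Nrarp, which were lower, and Dtx2, which was higher in Bnc1tr/tr ovaries. Dll4 (chromosome 2 from 119325784 to 119335962), the Delta-like ligand of endothelial cells, was at 30.3, 30.4 and 28.5 CPM in Bnc1+/+ and at 14.8, 16.5 and 17.3 CPM in Bnc1tr/tr ovaries. The highest Bnc1tr/tr value lay far below the lowest Bnc1+/+ value. Dll4 fell to 54.5% of the Bnc1+/+ mean (log2 fold change -0.88, SE 0.098, adjusted p = 0.0037 in edgeR). Its share of the summed level per kb of Jag1, Jag2, Dll1 and Dll4 went from 40.9% ± 2.25 in Bnc1+/+ to 29.1% ± 5.18 in Bnc1tr/tr (SD, n = 3).

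Nrarp (chromosome 2 from 25180758 to 25183339), a small ankyrin protein that is switched on by Notch and dampens it, was at 12.1, 13.3 and 11.3 CPM in Bnc1+/+ and at 6.30, 5.43 and 6.91 CPM in Bnc1tr/tr ovaries. All 3 Bnc1tr/tr ovaries had lower values than any Bnc1+/+ ovary. The log2 fold change was -0.98 (SE 0.14, adjusted p = 0.0092 in edgeR), and Nrarp missed the threshold without Bnc1+/+ replicate 4 (adjusted p = 0.0609). An annotated antisense gene, Gm38287, covers nearly all of Nrarp, and Notch1, Notch4 and Dll4 also overlap genes on the opposite strand, so that reads of the pairs may not be told apart. Of these only the partner of Dll4, Gm14207, had counts in the table, 7, 14 and 25 counts in Bnc1+/+ and 12, 3 and 4 counts in Bnc1tr/tr ovaries, against 415 to 1006 for Dll4. Dtx2, a Deltex ubiquitin ligase that binds Notch receptors, was at 67.7, 72.2 and 59.5 CPM in Bnc1+/+ and at 111, 84.3 and 101 CPM in Bnc1tr/tr ovaries. Every Bnc1tr/tr ovary lay above the Bnc1+/+ ovaries (log2 fold change 0.57, SE 0.12, adjusted p = 0.0358 in edgeR). It missed the threshold when any ovary other than Bnc1tr/tr replicate 2 was left out.

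The machinery shared by all receptors gave no DEG in edgeR, and in lists of 5 to 10 genes a background of 7.06% leaves less than 1 call per list. None of 5 glycosyltransferases that modify the receptors was called (1 had an unadjusted p under 0.05), and Pofut1, which adds O-fucose and was the highest of them, had a log2 fold change of -0.27 (adjusted p = 0.127). None of 10 proteases and gamma-secretase subunits was called (1 had an unadjusted p under 0.05), and the highest, Ncstn, the nicastrin subunit, was at 198 ± 10.8 and 187 ± 6.77 CPM (SD, n = 3). None of 8 genes of the nuclear complex and its co-repressors was called or had an unadjusted p under 0.05. DESeq2 and limma-voom also called 0 genes in these 3 lists. The highest gene of the 13 for trafficking and turnover, Dtx3, had a log2 fold change of -0.021, with a sign that turned under 2 other scalings, and that of the other target genes, Bhlhe40, one of 0.15. The largest differences of the pathway did not pass the threshold in edgeR and were singled out after their values were seen. Dner, a ligand of neurons, was at 0.781, 5.41 and 11.0 CPM in Bnc1+/+ and at 1.81, 0.616 and 0.775 CPM in Bnc1tr/tr ovaries, with overlap (log2 fold change -2.42, adjusted p = 0.131 in edgeR). It passed without Bnc1+/+ replicate 1 (-2.94, adjusted p = 0.0289). Dlk1, a Delta-like protein of precursor cells, was at 2.34, 2.78 and 1.93 CPM in Bnc1+/+ and at 3.45, 12.6 and 6.49 CPM in Bnc1tr/tr ovaries, without overlap (log2 fold change 1.67, adjusted p = 0.0639 in edgeR). It passed with DESeq2 (adjusted p = 0.0015), with library size only (adjusted p = 0.0472), without the filter on low counts (adjusted p = 0.0338) and without Bnc1tr/tr replicate 1 (adjusted p = 0.0173).

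Some markers of vascular cells moved with these genes. Of 14 endothelial markers, 6 were lower, 0 higher and 13 had a negative log2 fold change, with a median of -0.59. Their summed CPM was between 1126 and 1534 in Bnc1+/+ and between 824 and 945 in Bnc1tr/tr ovaries, without overlap, and none of them was at 0. Flt1 and Kdr, receptors for VEGF, had log2 fold changes of -0.99 and -0.66 (adjusted p = 0.0064 and 0.0063 in edgeR), and Pecam1, an adhesion molecule of endothelium, one of -0.85 (adjusted p = 0.0087 from the same test). Plvap, a protein of fenestrated endothelium looked at after its values were seen, went the other way, at 21.8, 26.9 and 30.4 CPM in Bnc1+/+ and 32.6, 48.2 and 37.2 CPM in Bnc1tr/tr ovaries, without overlap, and did not pass in edgeR (log2 fold change 0.58, adjusted p = 0.0903 in edgeR and 0.0261 in DESeq2). Of 11 pericyte and smooth muscle markers, 3 were lower and 0 higher, with a median of -0.093, and their summed CPM overlapped (2119.8 to 2317 in Bnc1+/+ and 2027 to 2235 in Bnc1tr/tr). The 3 were the pericyte genes Mcam, Cspg4 and Pdgfrb, with log2 fold changes of -0.74, -0.71 and -0.66 (adjusted p = 0.0110, 0.0175 and 0.0191 in edgeR). Other pericyte genes of the list, Rgs5, Kcnj8 and Abcc9, were not called. Their log2 fold changes were -0.80, -0.30 and -0.093 (adjusted p = 0.0521, 0.209 and 0.642 in edgeR), and of these the genotypes overlapped for Abcc9 only. Contractile genes of smooth muscle, looked at after their values were seen, were not called by edgeR. Acta2 was at 829 ± 25.3 and 809 ± 76.5 CPM and Myh11 at 404 ± 37.8 and 441 ± 51.5 CPM (SD, n = 3), and the log2 fold changes of both Tagln and Cnn1 were 0.14. Des, the muscle intermediate filament, was at 42.6, 28.3 and 33.1 CPM in Bnc1+/+ and at 44.2, 76.4 and 46.8 CPM in Bnc1tr/tr ovaries, without overlap (log2 fold change 0.69, adjusted p = 0.124 in edgeR and 0.0333 in DESeq2). Without Bnc1+/+ replicate 4, where 1.60% of all genes were called in place of 7.06%, 3 of the endothelial and 0 of the pericyte and smooth muscle markers were called, and Notch3, Notch4 and Dll4 were called. The log2 fold changes of the called pericyte genes were no smaller in that fit, at -0.78 for Mcam, -0.75 for Cspg4 and -0.73 for Pdgfrb. The part of the vascular cells in the values of Notch1 and Nrarp was not tested. Which cells of the ovary gave the RNA of Notch3 and the other receptors was not measured.

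**Figure D4:**
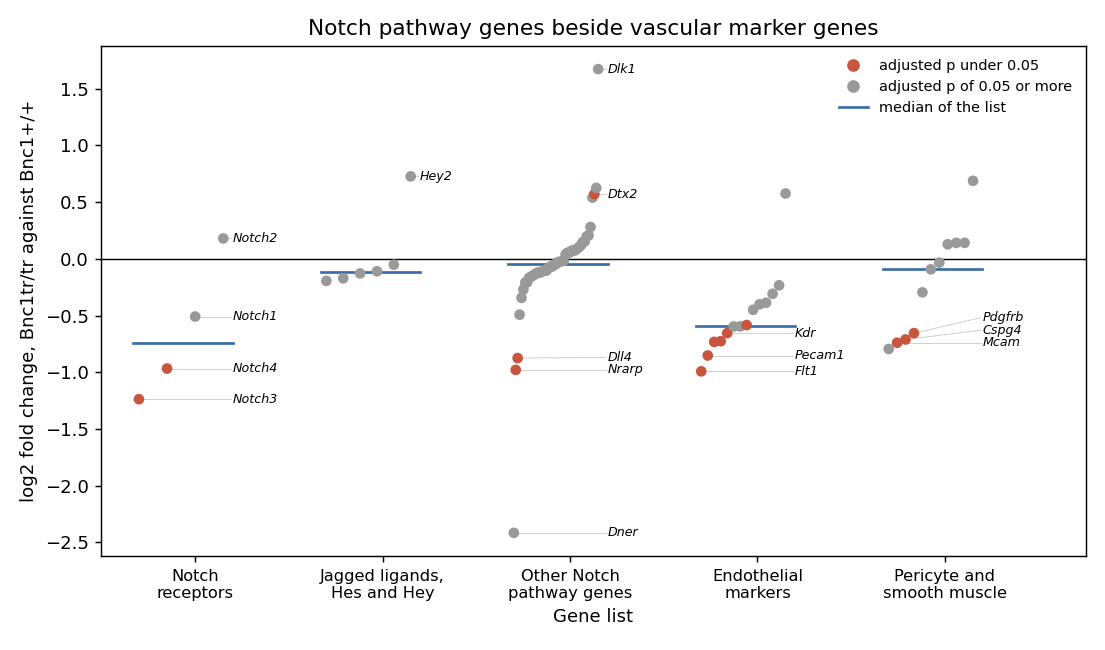
Log2 fold changes (Bnc1tr/tr against Bnc1+/+, 3 ovaries each) of the tested genes in 5 lists, 1 point per gene, with DEGs in red and the median of each list as a blue line. The median is -0.59 for the endothelial markers and -0.047 for the other Notch pathway genes, where Dll4 and Nrarp stand apart at -0.88 and -0.98.

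Notch3, Notch4 and Dll4 were set against these markers within each library, where no p can fall below 0.1. Pecam1, Pdgfrb and Cspg4 were themselves DEGs, and the ratios were chosen after the data were seen. The log2 fold change of Pecam1 (-0.85) was near those of Notch4 and Dll4, so small differences in ratios to it follow from that choice. Notch4 CPM amounted to 25.3%, 24.1% and 22.8% of Pecam1 CPM in Bnc1+/+ and to 26.8%, 22.3% and 18.0% in Bnc1tr/tr ovaries, with overlap (exact two-sided permutation test, p = 0.6). Dll4 CPM amounted to 23.3%, 22.8% and 17.0% of Pecam1 CPM in Bnc1+/+ and to 20.9%, 19.9% and 20.5% in Bnc1tr/tr, again with overlap (exact two-sided permutation test, p = 1.0). Against the sum of all 14 endothelial markers, Notch4 amounted to 2.91%, 2.49% and 2.49% in Bnc1+/+ and to 2.29%, 1.96% and 1.71% in Bnc1tr/tr, without overlap, a log2 difference of -0.41 (exact two-sided permutation test, p = 0.1, the smallest possible). Dll4 amounted to 2.69%, 2.36% and 1.85% of that sum in Bnc1+/+ and to 1.79%, 1.74% and 1.95% in Bnc1tr/tr, with overlap (log2 difference -0.32, exact two-sided permutation test, p = 0.2). The size of the difference thus varied with the endothelial genes chosen. Notch3 CPM amounted to 46.4%, 47.9% and 52.0% of Pdgfrb CPM in Bnc1+/+ and to 36.2%, 31.8% and 30.4% in Bnc1tr/tr, without overlap (log2 difference -0.58, exact two-sided permutation test, p = 0.1). Against Cspg4 the genotypes overlapped, with Notch3 at 131%, 148% and 202% in the Bnc1+/+ ovaries and at 151%, 102% and 90.8% in the mutant ovaries (log2 difference -0.50, exact two-sided permutation test, p = 0.3). Against the sum of the 11 pericyte and smooth muscle markers, to which the contractile genes gave most, Notch3 amounted to 3.24%, 3.62% and 4.92% in Bnc1+/+ and to 2.02%, 1.61% and 1.54% in Bnc1tr/tr, without overlap (log2 difference -1.17, exact two-sided permutation test, p = 0.1).

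By closeness of pattern, measured as the root-mean-square difference over the 6 ovaries of log2 CPM centred on the Bnc1+/+ mean, the nearest of 145 other listed genes to Notch4 were Flt1 (0.067), Pecam1 (0.19) and Dll4 (0.20). The nearest to Notch3 were Flt1 (0.18), Pecam1 (0.32) and Nrarp (0.32). Centring on the Bnc1+/+ mean brings genes with like log2 fold changes close together, such as Flt1 (-0.99) and Notch4 (-0.97). The root-mean-square values describe the same 6 libraries and carry no test.

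The corpus luteum, a tissue rich in vessels, was also lower in its markers: 8 of 10 were lower with a median log2 fold change of -1.49, among them the receptors Lhcgr (-3.01), Scarb1 (-1.86) and Prlr (-1.45), and their summed CPM was 22875 to 26675 in Bnc1+/+ and 7047 to 12576 in Bnc1tr/tr ovaries. Among all genes tested 4.19% were called lower. Without Bnc1+/+ replicate 4, where 1.60% of all genes were called, 2 of the 10 were called. The log2 fold changes stayed close in that fit, at -2.896 for Lhcgr, -1.815 for Scarb1 and -1.455 for Prlr. The part of luteal tissue in the values of the Notch genes was not tested. Oocyte markers were higher for 3 of 12 (Bmp15, Oosp1 and Gdf9, with log2 fold changes of 0.93, 1.04 and 0.78), and 1 marker each was higher of 12 for granulosa cells (Amh), 7 for stroma (Nr2f2), 6 for surface epithelium (Lrrn4) and 7 for adipose tissue (Plin1). These single calls were 8.33%, 14.3%, 16.7% and 14.3% of their lists, above the background of 2.88% higher, but each share rests on 1 gene. None of these 5 lists had a called marker without Bnc1+/+ replicate 4, where the log2 fold changes stayed close to those given (0.93, 1.09 and 0.80 for Bmp15, Oosp1 and Gdf9). No marker of theca cells (of 6), leukocytes (of 8) or oviduct (of 7) was called by edgeR, where 2, 1 and 2 had an unadjusted p under 0.05 and DESeq2 called 1, 0 and 1.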

How the data were processed

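Total RNA of 6 ovary samples was extracted with TRIzol, and single-end Ion Total RNA-Seq libraries were run on the Ion Proton. The authors deposited raw read counts per gene symbol. The aligner, counter and annotation are not given in the sources used here. The submitters' processing notes name the builds mm10 and Sscrofa10.2 with no role. Depth is the total count per ovary. Replicates of a genotype differed by more than counting error (chi-square per degree of freedom 17.0 to 64.4), and p values measure the spread between these samples.

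Genes were filtered with filterByExpr (minimum count 10, 19423 of 31717 genes with a count), scaled by TMM and compared with glmQLFit and glmQLFTest of edgeR 4.0.16 (R 4.3.3), two-sided. The 95% intervals came from the standard error and the moderated degrees of freedom (prior plus residual, 7.75 for each gene named). Alternatives were DESeq2 1.42.0, limma 3.58.1 with voom, a robust fit, other scalings and filters, and leaving out each ovary. The pipeline was also run on simulated counts with the same spread for every gene, a simpler setting than these data, and no result here rests on that run. The symbol Adgre1 was matched by its synonym. Gene positions and exon lengths came from GRCm38 with GENCODE M21, and promoters from RefSeq GRCm38.p6.

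The genes named were the 10 members, the other pathway genes past the threshold, the highest gene of each pathway list, and up to 3 called markers per list, of which 1 gene is not reported here. The members and the handwritten lists were chosen with earlier results of these data known, and the ratios after the data were seen.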

Additional observations from a re-analysis of the deposited data

How the results depend on the processing

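Notch3 and Notch4 were past the threshold under all 14 alternatives, with log2 fold changes from -1.34 to -1.05 and from -1.02 to -0.87, and so was Dll4. The number of DEGs over all genes was 1372, and 2420 with DESeq2. With 1 ovary fewer it ranged from 320 (without Bnc1+/+ replicate 4) to 1282 (without Bnc1tr/tr replicate 2). Of the other pathway genes, 3 were called, 6 with library size only, 5 with no filter, 6 with DESeq2 and 1 to 3 with 1 ovary fewer. Dll4 alone was called without Bnc1+/+ replicate 4. Among all genes tested 7.06% were called, 8.9% with library size only, 4.82% with no filter, 12.5% with DESeq2 and 1.6% to 6.4% with 1 ovary fewer. With library size as the only scaling the log2 fold change turned to 0.047 for Jag1, 0.016 for Ncstn, 0.077 for Dtx3 and 0.066 for Acta2, and with upper-quartile scaling to 0.024 for Dtx3 and 0.009 for Acta2. Leaving out each ovary gave -0.16 to 0.005 for Jag1, -0.132 to 0.092 for Dtx3 and -0.101 to 0.034 for Acta2. It gave log2 differences of -0.26 to 0.024 for Notch4 to Pecam1 and -0.176 to 0.05 for Dll4 to Pecam1, an alternative added after the data were seen. The cause of these shifts was not tested. No paired analysis was possible because the genotypes share 1 replicate number and nothing says which ovaries share a litter. With 3 ovaries per genotype, changes smaller than the intervals given for each gene could not be resolved.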
